A study of Mus musculus with 3 samples.

Results

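The array described here measured RNA from dorsal root ganglion cells of adult mice after 72 hours in control medium, which was DMEM with the B27 supplement and nothing else added. It is 1 of 3 arrays in the series and was taken by its title. The labels call the cells primary dorsal root ganglion neurons and give male ICR mice, an outbred strain, of 8 to 10 weeks. The other arrays came from cells given recombinant semaphorin 3E, with or without a blocking IgG, and no comparison with them was made. The medium has 1 array, so no value below has an error or a test, and how many mice or dishes stood behind it is not given in the sources used here.

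Dorsal root ganglia hold the cell bodies of the neurons that carry touch, temperature, itch, pain and body position to the spinal cord. Each neuron is wrapped by satellite glia, its axon is covered by Schwann cells, and fibroblasts, vessel cells and macrophages lie between. Taking the ganglia apart cuts every axon, and neurons in such cultures are commonly used as a model of axotomised, regrowing neurons. The array reads the mixture, so fewer cells of a type and less RNA per cell cannot be told apart.

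The authors' intensities ran from 6.60 to 496402 over 65956 probe sets, with a median of 44.5. A gene's level is log2(intensity + 1) of its brightest probe set among those that carry exactly 1 gene symbol, which gave 30142 genes. The background level was the 95th percentile of 492 vomeronasal receptor genes (Vmn1r and Vmn2r), which sense pheromones in the nose and are taken as unexpressed here. It came to 5.49, or 43.9 intensity units. A gene at or above it is called above background, a gene among the brightest 10% of all genes (level 10.77, or 1741 units) is called high, and the genes between are called moderate. Probe sets differ in how strongly they bind, so a rank within the array is a rank of probe sets and only a rough guide to amounts of RNA.

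By these limits 17620 genes lay above background, which is 58.5% of all genes and 64.4% of the 19043 protein-coding ones. Of them 14605 were moderate and 3015 were high. Olfactory receptor genes, which had no part in setting the background level, were at background in nearly all cases: 66 of 1225 lay above it (5.39%), the brightest being Olfr1055 at 9.62. The values near the limits were close together, with Cd3g at 5.52 and Matn1 at 5.53 just above background and Itgam at 5.48 and Cd163 at 5.48 just below it, and with Pcsk1 at 10.80 just above the cut for high and Syt1 at 10.71 just below.

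Dim values were coarse. Of the genes at background, 86.7% shared their exact value with at least 1 other gene. The share was 65.1% over all genes and 6.24% among the high genes, and 303 genes held the same value of 4.84. An order among genes at background therefore has no meaning. Ties reached moderate genes too: Trpv1, Foxp2 and Cxcl5 all read 74.8 units, and Scn10a and Stmn4 both read 539 units. Close moderate levels are therefore not a reliable order either. In 78.9% of genes the deposited value was also identical in all 3 arrays of the series (50.7% of the high genes); the origin of this was not tested.

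**Figure D1:**
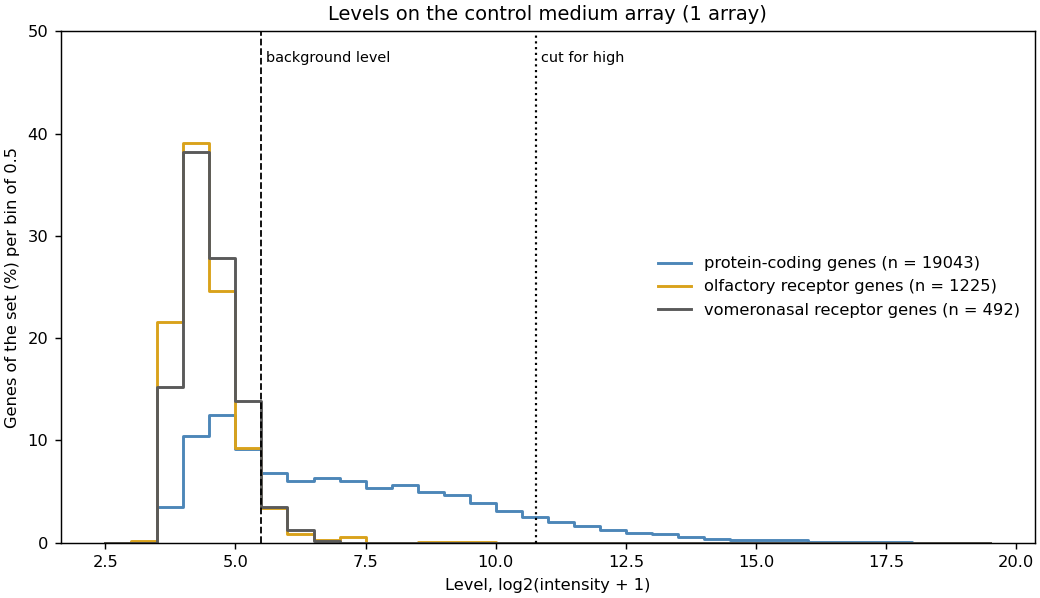
Share of genes in each bin along the level, log2(intensity + 1), for protein-coding genes, olfactory receptor genes and vomeronasal receptor genes on the control medium array. Both receptor families pile up left of the dashed background level of 5.49, while protein-coding genes spread past the dotted cut for high at 10.77.

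Neuronal, injury, glial and stromal genes were mostly above background, and immune genes mostly were not. The fixed lists held 141 measured neuronal genes, of which 120 lay above background (85.1%) and 35 were high. Of 61 measured injury genes, 57 lay above background (93.4%) and 31 were high. The groups are not separate: 14 genes stand in 2 of them, 9 of these in both the neuronal and the injury group, and 5 of the 9 were high (Nts, Gal, Adcyap1, Cartpt and Npy). Of 53 glial genes 46 lay above background and 16 were high, and of 73 stromal genes 55 did and 14 were high. Of 104 immune genes 48 lay above background (46.2%) and 4 were high. Over all 30142 genes 58.5% lay above background and 10.0% were high, and over protein-coding genes 64.4% and 9.94%. The counts of single lists given below are to be read beside these shares. Markers of tissues taken as absent were counted for scale. Their 8 lists covered liver, skeletal muscle, red blood cells, fat, cartilage and bone, epithelia and the central nervous system. These lists had 18 of 63 measured members above background (28.6%) and 0 high. The share was largest for cartilage and bone, with 5 of 8 above background.

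**Figure D2:**
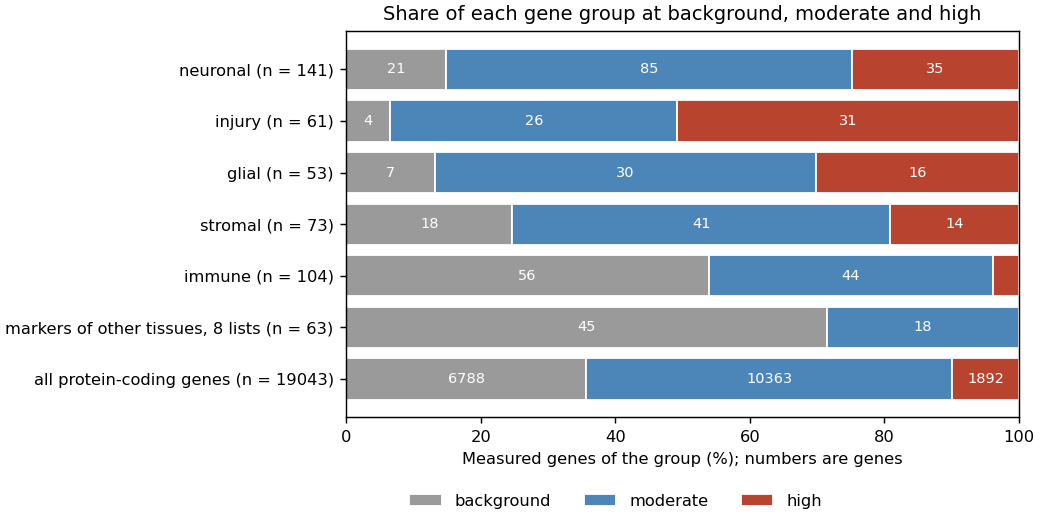
Share of the measured genes of each group that were at background, moderate or high on the control medium array, in percent, with the number of genes in the larger blocks. The injury group has the largest share of high genes (31 of 61), and the markers of other tissues have none.

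Genes that every neuron uses were bright, as the labelled cell type calls for, but the label names neurons only and the glial and matrix genes given further on were bright as well. All 25 pan-neuronal genes lay above background and 13 were high, with a median level of 10.92. Uchl1, a ubiquitin hydrolase abundant in neurons, read 205992 units (level 17.65, percentile 99.8 of all genes). The neurofilament light chain gene Nefl read 16.50 and Prph, which encodes the peripheral neuron filament peripherin, 14.91. The tubulin regulator Stmn2 read 15.77, the microtubule protein gene Map1b 15.53, the release machinery gene Snap25 14.41 and the neuronal tubulin gene Tubb3 13.62. At the other end Syp, of synaptic vesicles, read 7.56, Rbfox3, which encodes the nuclear antigen NeuN, 7.67, and Nefm, the medium neurofilament chain, 7.91. These are moderate levels, well above background.

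Of 12 measured genes of sensory neuron identity 8 lay above background (66.7%), near the share of all protein-coding genes, and 3 were high. Pou4f1, which encodes the transcription factor Brn3a, read 12.28, Isl1 read 11.03 and the sensory neuron gene Avil (advillin) 11.18, and all were high. Runx1, the transcription factor of the nociceptor lineage, was moderate at 8.34. Runx3, its counterpart in proprioceptors, lay at background (5.09), as did the early neurogenic genes Neurog1 (3.40) and Neurog2 (5.38) and Tlx3 (4.32). Shox2 (5.92), Hoxd1 (5.91), Tlx2 (5.84) and Pou4f3 (5.76) were just above background. The vesicular glutamate transporter gene Slc17a6, which sets these neurons up to release glutamate, read 14.41, while its relatives Slc17a8 (6.48) and Slc17a7 (6.31) were not far above background.

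Markers of nociceptors, the neurons that respond to damage, spanned the whole range. Of 10 peptidergic markers 8 lay above background (80%, against 64.4% of protein-coding genes). The peptide genes Adcyap1 (15.27) and Calcb (14.61) and Gfra3 (12.57), the receptor of artemin, were high. Kit read 8.91 and Tac1, the substance P precursor, 8.68. Trpv1, the heat and capsaicin receptor of these neurons, read 6.24, or 74.8 units, within 1 log2 unit of background. Bdnf was similar at 6.04. The opioid receptor gene Oprk1 (4.23) and Sstr2 (4.77) were at background. Calca had no probe set with exactly 1 symbol and is not analysed here.

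Of 18 non-peptidergic and itch markers 16 lay above background (88.9%, against 64.4% of protein-coding genes). Only Ret (13.81), the signalling receptor of the GDNF family, and P2rx3 (12.78), an ATP-gated channel, were high. That is 11.1% of the list, near the 9.94% of protein-coding genes. The co-receptors Gfra1 and Gfra2 read 9.13 and 8.00, Plxnc1 8.92 and Osmr, the oncostatin M receptor, 10.34. The Mrg receptors, which detect itch-causing substances, were dim with the exception of Mrgprb5 (8.50): Mrgpra3 read 6.81, Mrgprd 6.19 and Mrgprx1 5.99, and Mrgprb4 lay at background at 5.22. The itch peptides Nppb (6.36) and Sst (6.31) and the itch receptor Il31ra (5.04, at background) were of the same order.

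Markers of large-diameter neurons, which serve touch and body position, gave 13 of 18 above background and 3 high. The share above background was 72.2%, against 64.4% of protein-coding genes. The high ones, Ldhb (11.59), Nefh (11.24) and the potassium channel gene Kcna1 (10.93), are also used by other neurons. The neurotrophin receptors Ntrk2 and Ntrk3 read 9.43 and 8.09, and Pvalb, the calcium buffer of proprioceptors, 8.52. Esrrg (5.02), Esrrb (4.32), Calb2 (4.86), Colq (5.15) and Runx3 lay at background.

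The list for low-threshold C fibres and cold-sensing neurons had 10 of 11 members above background and 0 high. The share above background was 90.9%, against 64.4% of protein-coding genes. Piezo2, the touch channel, read 9.72, and Th, which marks C fibres of gentle touch, 8.86. Penk read 8.21 and Tafa4 6.98. Trpm8, the menthol and cold receptor, was the member at background (5.02).

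Among sodium channels 9 of 10 measured genes lay above background (90%, against 64.4% of protein-coding genes). Scn9a, which encodes NaV1.7, was the high one at 11.45. Its nociceptor relatives Scn10a (NaV1.8) and Scn11a (NaV1.9) read 9.08 and 8.12, the beta subunit gene Scn3b 9.86, and Scn2b lay at 5.43, at background. Of 23 transduction channel genes 18 lay above background (78.3%, against 64.4% of protein-coding genes). Beside P2rx3 and Piezo2, the heat-responsive channel Trpm3 read 9.74, the acid-sensing channel Asic3 9.34, P2rx4 9.44 and Trpv2 8.98. Trpa1, the irritant receptor, read 6.21, or 72.9 units, close to Trpv1. Trpv4 (4.84), Trpv3 (4.42), P2rx2 (4.68), Trpm2 and Trpm8 (both 5.02) lay at background.

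**Figure D3:**
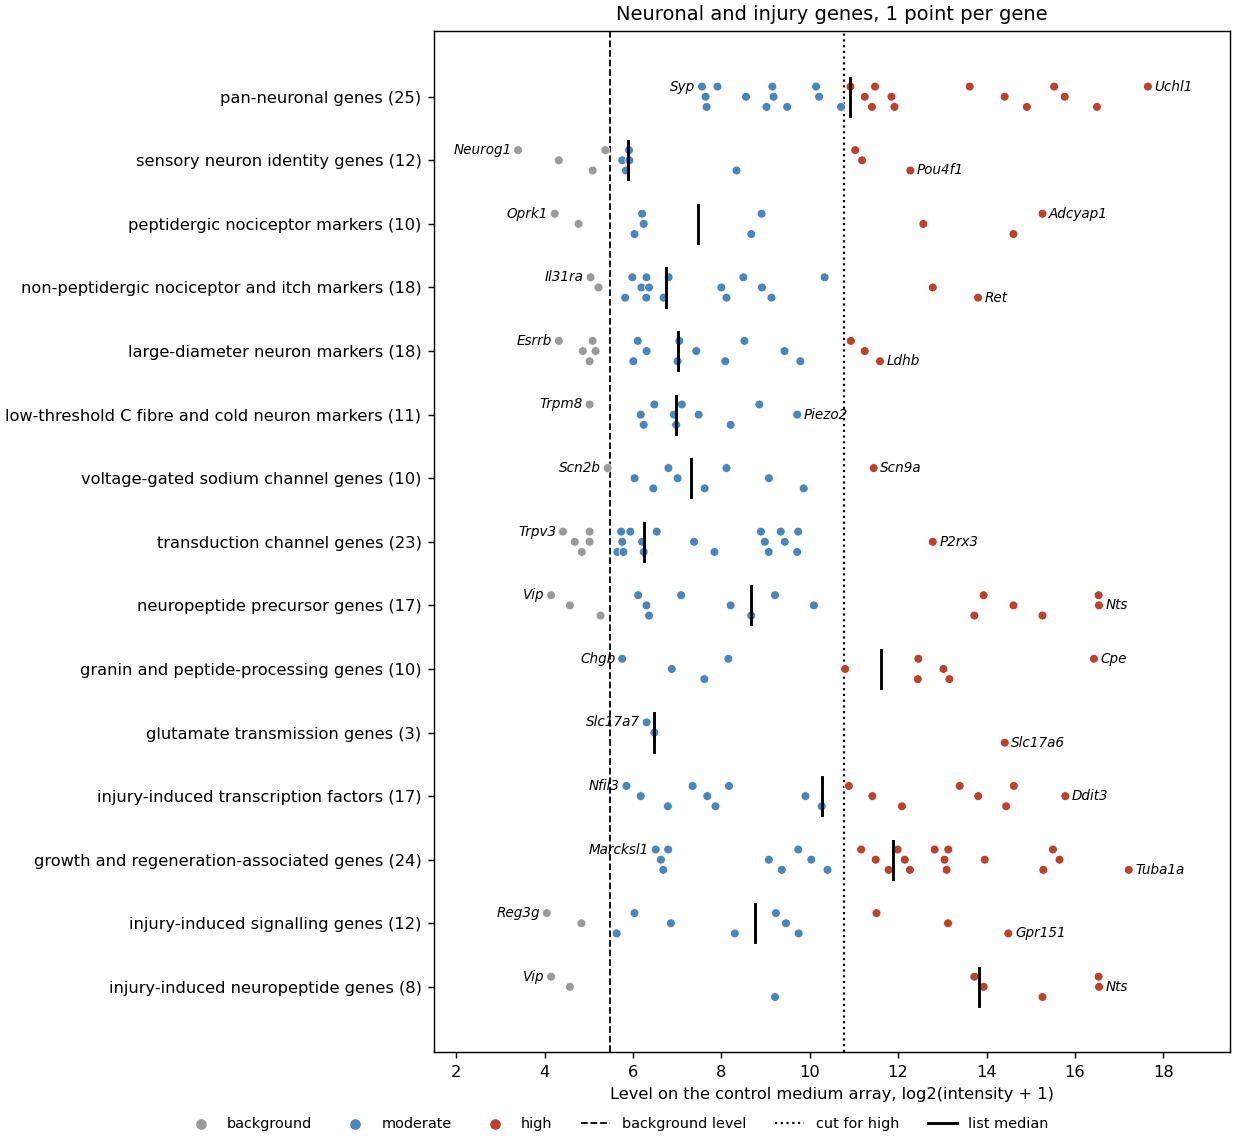
Level, log2(intensity + 1), of each measured gene of the neuronal and injury lists on the control medium array, with 1 point per gene, the number of measured genes in brackets, the list median as a short black bar, the background level dashed and the cut for high dotted. The brightest and the dimmest gene of each list are named. Pan-neuronal and regeneration genes all lie right of the background level, and the neuropeptide precursor list holds 6 high, 8 moderate and 3 background members.

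Neuropeptides gave the widest spread of any neuronal list, from 4.15 to 16.55. Neuropeptides are cut from larger precursors inside dense-core vesicles by convertases and carboxypeptidases and then often amidated. Nts, the neurotensin precursor, read 95637 units (level 16.55) and Gal, the galanin precursor, 95063 units (16.54), which put both at percentile 99.3 of all genes. Adcyap1, which encodes PACAP, read 15.27, the CGRP-beta gene Calcb 14.61, Cartpt 13.93 and Npy 13.72. These 6 of 17 measured precursors were high (35.3%, against 9.94% of protein-coding genes). Nmb (10.09), Crh (9.21), Tac1 (8.68) and Penk (8.21) were moderate, and Ucn (7.09), Nppb, Sst and Nmu (6.12) were nearer background. Vip (4.15), Cck (4.57) and Pdyn (5.27), the precursors of VIP, cholecystokinin and dynorphin, lay at background.

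The machinery that makes and stores the peptides was present throughout. All 10 measured granin and processing genes lay above background and 6 were high, against 64.4% and 9.94% of protein-coding genes. Cpe, the carboxypeptidase that trims the cut peptides, read 16.43, the convertase chaperone gene Scg5 13.16, the granin genes Scg2 and Scg3 13.03 and 12.46, the amidating enzyme gene Pam 12.45 and the convertase gene Pcsk1 10.80. Vgf read 8.16, Chga 7.62 and Pcsk1n 6.88. Chgb, chromogranin B, was close to background at 5.76. Pcsk2 had no probe set with exactly 1 symbol.

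**Figure D4:**
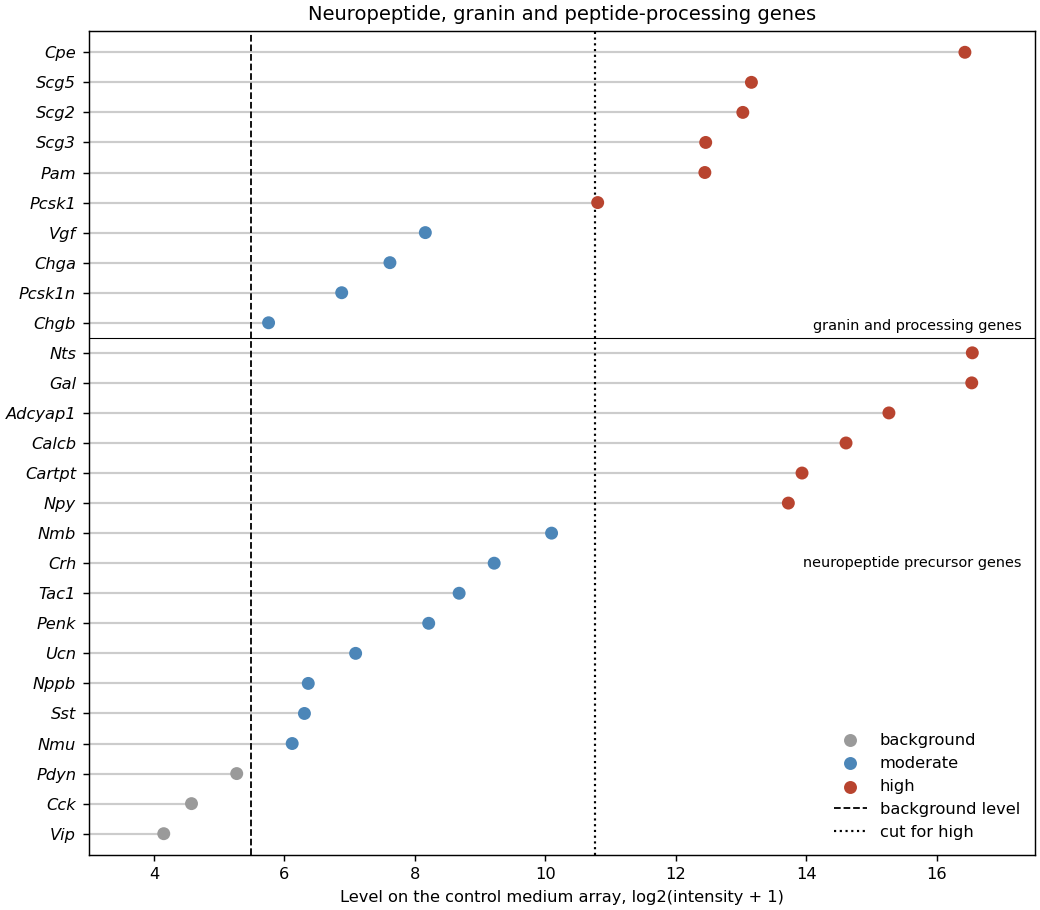
Level, log2(intensity + 1), of the 17 neuropeptide precursor genes (lower part) and the 10 granin and processing genes (upper part) on the control medium array, 1 point per gene, with the background level dashed and the cut for high dotted. Nts, Gal and Cpe lie above 16, while Vip, Cck and Pdyn lie left of the background level.

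Some promoters of these peptide genes hold a short sequence feature. It was picked after the levels were seen, so its counts below are a description only. The cyclic AMP response element (CRE) is a short DNA word bound by CREB and ATF factors, and the perfect form TGACGTCA reads the same on both strands. RefSeq start sites (GRCm38.p6) gave a window of 250 bases upstream for 22 of the 27 measured peptide and processing genes, and 6 of these 22 genes held the word. In all 32851 such windows of the table it stood in 1.55%. That share is per window. Counted per gene, like the 6 of 22, the word stood before 0.934% of protein-coding genes at background. The share per gene was 2.69% for moderate and 4.20% for high protein-coding genes. Windows are shown 5′ to 3′ for the 6 genes, 60 bases each, with the CRE in capitals, because the same word stands before high, moderate and near-background genes.
Scg2: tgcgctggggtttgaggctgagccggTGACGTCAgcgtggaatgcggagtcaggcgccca
Cartpt: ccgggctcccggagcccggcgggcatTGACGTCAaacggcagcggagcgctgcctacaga
Pcsk1: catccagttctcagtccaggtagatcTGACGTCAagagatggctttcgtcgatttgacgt
Ucn: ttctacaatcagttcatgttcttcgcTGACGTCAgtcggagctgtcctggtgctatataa
Sst: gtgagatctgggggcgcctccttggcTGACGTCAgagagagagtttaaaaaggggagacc
Chgb: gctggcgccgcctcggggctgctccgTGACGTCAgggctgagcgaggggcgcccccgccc

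The windows lie at chr1:79440061-79440120 for Scg2, chr13:99900762-99900821 for Cartpt, chr5:31138906-31138965 for Ucn and chr16:23890859-23890918 for Sst, all on the minus strand, and at chr13:75089753-75089812 for Pcsk1 and chr2:132781544-132781603 for Chgb on the plus strand. The word began between 44 and 112 bases before the start site, nearest in Ucn and furthest in Cartpt. Scg2 (13.03), Cartpt (13.93) and Pcsk1 (10.80) were high, Ucn (7.09) and Sst (6.31) moderate, and Chgb (5.76) only just above background. A match is a description of the letters and does not show that a factor was bound. None of the 14 injury-induced transcription factor genes and 13 regeneration genes with a window held it. The AP-1 word described next stood before 1 of the 14, 3 of the 13 (Anxa2, Plaur and Sprr1a) and 3 of the 22 peptide and processing genes (Nmu, Nts and Pcsk1n). At these numbers of genes such counts are a description only. The motifs were chosen after the levels were seen.

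Over all protein-coding genes with a window, the CRE word stood before 0.934% of 5458 genes at background, 2.69% of 8450 moderate genes and 4.20% of 1524 high genes. The AP-1 word TGANTCA, where N is any base, is bound by Jun and Fos proteins, and reads the same on both strands; neither word contains the other. It ran the other way, with 10.0% of background, 6.04% of moderate and 4.92% of high genes. In all windows of the table it stood in 6.75%, a share per window and not per gene. Base composition moved with the classes as well: the median GC content of the window was 48.0% at background, 59.6% for moderate and 60.4% for high genes, and the median number of CpG dinucleotides was 3, 15 and 17. A gene counted as holding a word when any of its windows did, so genes with more windows had more chances. The parts of base composition and of the number of windows in the motif shares were not tested.

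Genes known to be induced in sensory neurons when their axons are cut had the highest median level of the gene groups, 10.89 (percentile 90.5). The lists were chosen with earlier results of these data known. All 3 arrays of the series came from cells cultured for 72 hours, with no uninjured ganglia. High levels here therefore do not show induction, nor which cells gave them. All 17 injury-induced transcription factor genes lay above background and 8 were high. Ddit3, which encodes the stress factor CHOP, read 15.78, and its other probe set 14.53. Klf7 read 14.62, Atf3, the usual mark of an axotomised neuron, 22305 units (14.45), Sox11 13.81 and Klf6 13.39. Xbp1 (12.09), Stat3 (11.42) and Jun (10.89) were also high. The immediate-early genes Egr1 (6.79) and Fos (6.18) and the rhythm gene Nfil3 (5.85) were dim, and Myc read 8.17.

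Growth and regeneration genes were all above background, 24 of 24, and 15 were high, with a median level of 11.89. Tuba1a, a tubulin of growing axons, read 17.22 and Stmn1 15.65. Gap43, the growth cone protein, read 13.96. The FN14 receptor gene Tnfrsf12a read 15.29, Anxa2 15.50, Gadd45a 13.13, Flrt3 13.10, Sema6a 13.05 and the endopeptidase gene Ecel1 11.78. The exceptions included well-known members: Sprr1a, among the most strongly induced genes after nerve injury, read 6.63 (98.3 units, percentile 57.4), and the growth cone protein gene Basp1 6.69, with Marcksl1 at 6.52 and Arg1 at 6.80.

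The injury-induced signals were mixed. Gpr151, an orphan receptor that appears in injured sensory neurons, read 14.49, the alpha2delta-1 subunit gene Cacna2d1, the target of gabapentin, 13.13 and Csf1, the growth factor through which injured neurons call microglia, 11.51. Timp1 (9.75), Sez6l (9.46), Cckbr (9.23) and Gch1 (8.30) were moderate. The cytokine genes Il6 (6.86) and Lif (5.63) were dim, and the regenerating-islet genes Reg3b (4.83) and Reg3g (4.05) lay at background. Of the 8 neuropeptide genes known to change with injury, 5 were high (Nts, Gal, Adcyap1, Cartpt and Npy), Crh was moderate, and Vip and Cck lay at background.

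Glial genes were present at levels like those of the neuronal lists. All 16 measured satellite glial markers lay above background and 5 were high: Cdh19 (12.49), Fbln2 (11.84), the fatty acid binding protein gene Fabp7 (11.83), Apoe (11.22) and Fbln5 (11.17). The endothelin receptor gene Ednrb read 10.23. Kcnj10, the Kir4.1 channel by which satellite glia clear potassium, was moderate at 8.64. The gap junction gene Gja1 (5.65), the glutamate transporter gene Slc1a3 (5.82) and Gfap (6.10), which are used by these cells to couple, take up glutamate and respond to injury, were just above background. Glul is not analysed here for want of a probe set with exactly 1 symbol.

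Of 11 Schwann lineage markers 10 lay above background (90.9%, against 64.4% of protein-coding genes) and 6 were high. S100b read 12.61 and the small heat shock gene Cryab 12.05, and the adhesion gene Cadm4 14.26. Ncam1 (14.97), Scn7a (13.21) and L1cam (12.46) were high too; Ncam1 and L1cam are shared with neurons. Mia (5.06) was the member at background. The lineage transcription factor genes Sox10 and Foxd3 read 9.27 and 6.60, the neuregulin receptor gene Erbb3 8.65 and the low-affinity neurotrophin receptor gene Ngfr 9.90.

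Of 16 measured myelin genes 4 were high, 8 moderate and 4 at background. The share above background was 75%, against 64.4% of protein-coding genes. Pmp22 read 17.00, at percentile 99.6 of all genes, and Pmp2 (12.52), Gldn (12.29), which gathers channels at nodes, and Mal (12.18) were high. Mbp, the myelin basic protein, read 7.88, Egr2, the master regulator of myelination, 9.04 and Cnp 6.57, and the moderate members ran from Fa2h (5.98) to Dhh (9.60). Mag (4.84), Pllp (4.77), Cldn19 (4.64) and the connexin 32 gene Gjb1 (4.58) lay at background. Genes of repair Schwann cells, the state these cells take after nerve injury, lay above background in 9 of 11 cases. The share was 81.8%, against 64.4% of protein-coding genes. Jun, described above, was the high one. Btc read 9.64, Sox2 8.19, Clcf1 7.59, Gdnf 6.40 and Shh 5.76, and Olig1 (5.36) and Artn (4.66) lay at background.

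Stromal genes showed a bright matrix component. Of 28 measured fibroblast and matrix genes 24 lay above background (85.7%, against 64.4% of protein-coding genes) and 8 were high. The matricellular genes Postn (15.38) and Sparc (15.37) and the filament gene Vim (15.24), which is widely expressed, led the list. Dcn (13.13), Timp2 (12.53), S100a4 (12.09), Mgp (11.64) and Fn1 (11.13) were high as well. The collagen genes were less bright: Col1a2 read 10.53 and Col5a2 10.46, but Col1a1 7.99 and Col3a1 7.44, and Col6a1 lay at background (5.45). Pi16 (4.84) and Dpt (5.29), which mark quiescent fibroblasts, and Twist1 (4.93) also lay at background.

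Of 16 mural and smooth muscle markers 12 lay above background (75%, against 64.4% of protein-coding genes). The contractile genes Acta2 (12.90) and Tagln (12.25), which myofibroblasts share, and Mcam (12.05) were high, and Pdgfrb was moderate at 9.47. Myl9 read 10.06, Tpm2 8.05, the pericyte proteoglycan gene Cspg4 7.21, Cnn1 6.73, Rgs5 6.62, the smooth muscle myosin gene Myh11 6.21 and Notch3 5.77. Abcc9 (5.19), Vtn (4.93) and Kcnj8 (4.49) were among the 4 members at background.

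Endothelial markers gave 11 of 19 above background, with a median of 5.71. The share was 57.9%, against 58.5% of all genes and 64.4% of protein-coding genes. Mfsd2a, a lipid transporter of the blood-brain barrier that other cells also use, read 13.29 and was the sole high member. Ly6c1 (8.14), which some leukocytes share, and Emcn (7.15) followed. The endothelial cadherin gene Cdh5 read 6.50, Flt1 6.23, Cldn5 6.17 and Pecam1 6.06, and Tek (5.43), Vwf (5.10), Erg (4.73), Plvap (4.51) and Slco1a4 (4.50) were among the 8 members at background. In the perineurial and meningeal list 8 of 10 lay above background (80%, against 64.4% of protein-coding genes). The brightest were the glucose transporter gene Slc2a1 (13.29), which many cells use, and the retinoic acid binding protein gene Crabp2 (11.22). Slc6a13 (4.98) lay at background.

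Immune genes were dim, with a median level of 5.38 (percentile 39.7), below the background level. Of 28 measured macrophage markers 16 lay above background (57.1%), against 58.5% of all genes and 64.4% of protein-coding genes. Lyz2, the myeloid lysozyme, was the sole high one at 11.08. Cd68 read 10.09, the galectin gene Lgals3, which is shared with neurons and other cells, 8.87, Aif1, which encodes IBA1, 8.26, Cd14 7.68 and the F4/80 gene Adgre1 7.40. Several defining genes of macrophages lay at background: Csf1r (4.97), the receptor these cells need to survive, Ptprc (4.78), the pan-leukocyte antigen CD45, C1qb (4.72) and C1qc (4.51), Trem2 (5.03), Mrc1 (5.24) and Itgam, while C1qa read 6.11 and Cx3cr1 7.16.

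Lymphocyte and mast cell markers were mostly at background, and neutrophil markers were mixed. Of 12 lymphocyte markers 2 lay just above background (Cd79a 5.62, Cd3g 5.52), and all 9 mast cell markers lay at background, from the receptor gene Mrgprb2 (3.50) to the tryptase gene Tpsb2 (4.91). The B cell gene Ms4a1 (4.03) was among the lymphocyte markers at background. Neutrophil genes gave 6 of 11 above background (54.5%), against 58.5% of all genes and 64.4% of protein-coding genes. The brightest were the calprotectin genes S100a8 (8.19) and S100a9 (7.79), followed by Camp (7.55). Mpo (4.42) and Elane (4.31), the enzymes of neutrophil granules, lay at background.

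Of 17 cytokine genes 8 lay above background (47.1%), with Csf1 (11.51) alone high and Il11, of the IL-6 family, at 8.17. Tnf (5.43), Il1a (5.05), Il10 (4.93) and Ifng (3.78) lay at background, and Il1b was just above it at 5.62. Of 18 chemokine genes 11 lay above background (61.1%), against 58.5% of all genes and 64.4% of protein-coding genes. Ccl2, which attracts monocytes and is made by injured sensory neurons and glia, was high at 10.95. Cxcl16 (7.90), Ccl3 (7.86), Cxcl14 (7.85), Ccl11 (7.84), Ccl7 (7.13) and Cxcl10 (7.10) were moderate, and Cx3cl1 (4.98) and Cxcl9 (4.25) lay at background. Of 9 measured complement genes the regulators Cd55 (11.52) and Serping1 (9.98) were the brightest, and the complement components C2 (4.93) and Cfb (4.84) lay at background.

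**Figure D5:**
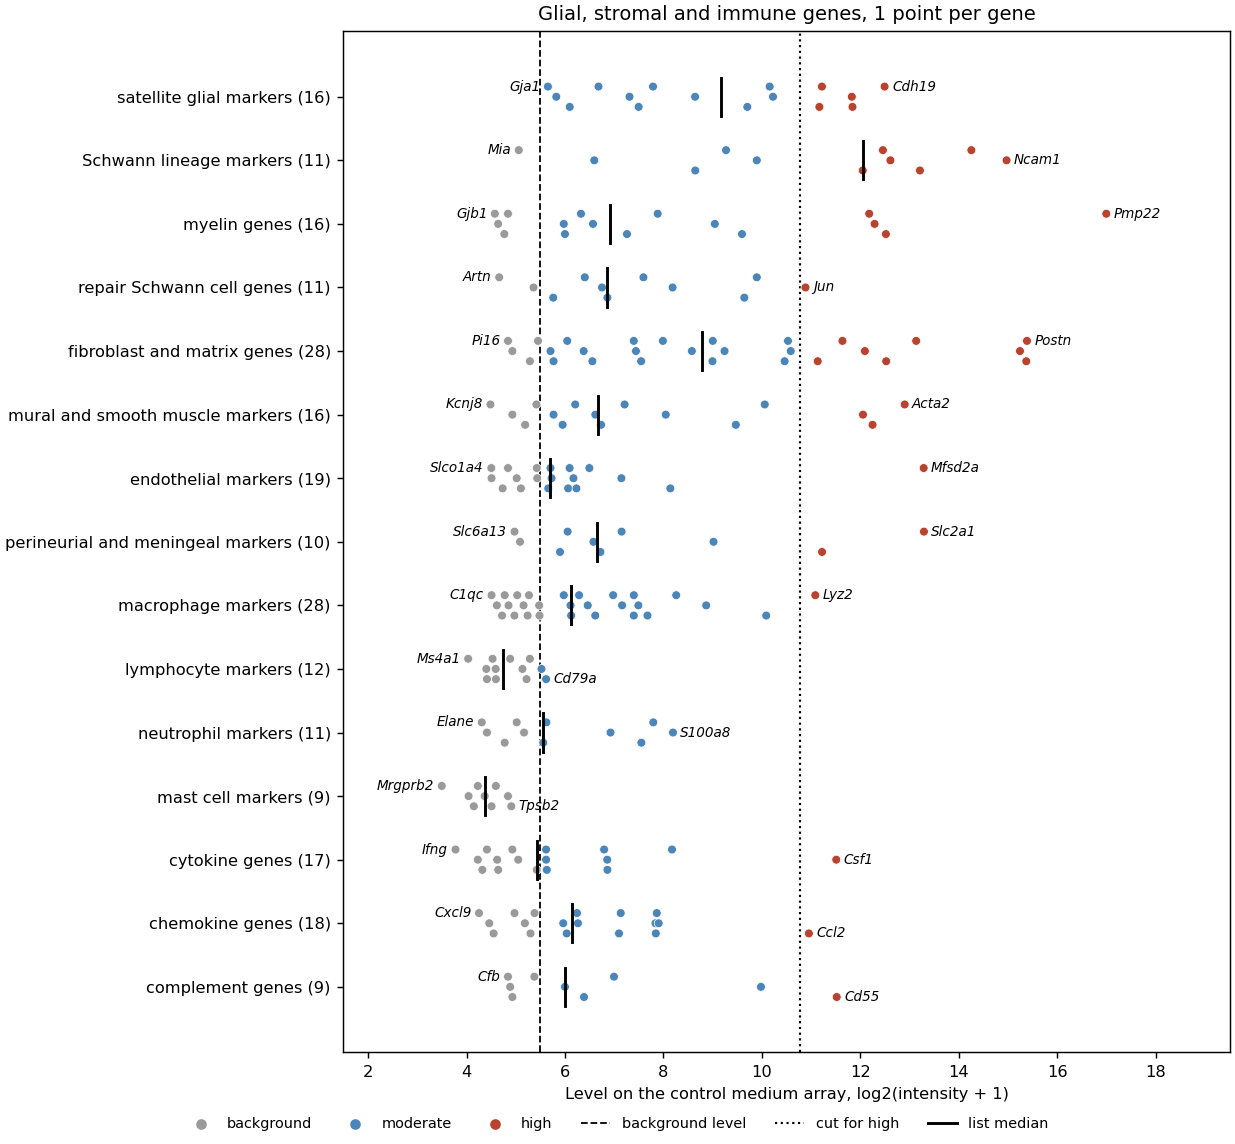
Level, log2(intensity + 1), of each measured gene of the glial, stromal and immune lists on the control medium array, with 1 point per gene, the number of measured genes in brackets, the list median as a short black bar, the background level dashed and the cut for high dotted. Glial and matrix genes reach far to the right, while mast cell markers all lie left of the background level.

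Cell division genes were expressed throughout, although mature neurons do not divide. All 13 measured proliferation genes lay above background, with a median of 9.89. Mki67, the antigen Ki-67 of cycling cells, read 13.99 and the replication clamp gene Pcna 13.83, and both were high. Ccna2 (10.50), Cdk1 (10.08), Top2a (10.07) and Plk1 (9.89) were moderate, and Bub1 was the dimmest at 7.62. Which cells these transcripts came from was not tested.

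The labels' sex could be checked directly, while for the tissue only markers of some other tissues were read. The Y-linked genes Eif2s3y (9.88), Uty (9.43) and Kdm5d (8.26) lay above background and Xist, the RNA that silences an X chromosome in females, lay at background (4.80), which is the pattern of male cells. Markers of the central nervous system were at or near background: the oligodendrocyte genes Mog (4.23), Mobp (4.12) and Opalin (4.14), the astrocyte channel gene Aqp4 (4.93) and the inhibitory neuron genes Gad1 (4.77), Gad2 (4.59) and Slc32a1 (4.04) all lay below the limit. The brightest of these lists were Olig2 (6.11) and the serotonin transporter gene Slc6a4 (6.39), and Slc18a3 (3.50) lay at background. Skeletal muscle genes reached 6.36 (Acta1) with Myh4 at 5.10 and Pax7 at 4.44, and liver markers ran from 4.27 (Fga) to 5.24 (Ahsg). The red cell genes Alas2 (5.32) and Slc4a1 (5.02) lay at background. They were the only 2 measured of 10 listed, and the haemoglobin genes were not measured. Fat markers ran from 4.28 (Lep) to 5.64 (Fabp4). Cartilage and bone markers ran from 4.69 (Acan) to 6.68 (Ibsp), and 5 of 8 lay above background. That share, 62.5%, is near the 64.4% of protein-coding genes, although these tissues were taken as absent. Levels between 5.49 and 6.68 therefore do not separate markers of ganglion cells from markers of tissues taken as absent. In the epithelial list Cdh1, which encodes E-cadherin and is used by some sensory neurons and glia, stood out at 10.21, while Epcam (4.84), Krt5 (5.24), Krt14 (5.02) and Krt18 (3.94) lay at background.

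The receptor of semaphorin 3E lay well above background, and the ligand was close to it. Plxnd1, the plexin that binds semaphorin 3E, read 1480 units (10.53, percentile 89.0), and Nrp2 8.70. Sema3e read 5.93 and Kdr, a receptor that can join the complex, 5.66, both just above background. Nrp1 shares its probe set with a microRNA gene and is not analysed here.

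The brightest genes on the array were mostly housekeeping genes and copies of them, together with a few of neurons and glia. Leaving out predicted genes, clones, small RNAs, pseudogenes and receptor families by the form of their symbols, the order began with the chaperone gene Hspa8 (18.70), the mitochondrial gene COX1 (18.33), Rpl41 (18.22), Rps3a2 (17.78) and Atp5md (17.77). Uchl1 followed in place 6 and the galectin gene Lgals1 (17.58) in place 7. Rpl35, Eef1a1, Sod1 and Rps3a3 came next, between 17.51 and 17.40. Cstb (17.24), Tuba1a (17.22), Anxa5 (17.17), Tuba1c (17.13), Itm2b (17.10), Hist1h2aj (17.09), Hnrnpa3 (17.05), Tecr (17.03) and Pmp22 (17.00) completed the 20. RefSeq classes Rps3a2 and Rps3a3 as pseudogenes, although the form of their symbols does not show it. For 5 of these genes, Hspa8, Rpl41, Rpl35, Tuba1c and Hnrnpa3, the chromosome in the name of the probe set was not that of the gene in RefSeq (for Hspa8, 6 in place of 9), so their values are uncertain as to which copy was read. This was so for 0.222% of all genes compared, for 1.59% of the 1889 high protein-coding genes compared, and for 0 of the 500 list members compared. The remaining list member, Ddit3, has a brightest probe set with no position, and the Ddit3 probe set that has one is also high.

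Copies of genes took most of the top places when nothing was left out. Of the 100 brightest genes, 57 were predicted genes and 24 pseudogenes by the form of their symbols, and RefSeq classes 77 of the 100 as pseudogenes and 13 as protein-coding. Over the whole array 21.9% of 4274 pseudogenes were high, against 9.94% of protein-coding genes and 0.379% of 3169 long noncoding RNA genes. Long noncoding RNA genes were above background in 25.7%. Pseudogenes resemble their parent genes in sequence, so these levels are uncertain as to which copy was read.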

How the data were processed

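Cells were lysed in TRIzol, and the purified total RNA was amplified and biotin-labelled with a GeneChip WT Pico kit, per the labels. The deposited intensity values came from the authors' run of Affymetrix Expression Console, a tool named by the submitters' processing notes. Its version, the summary of probes, the normalization and the build remain not given in the sources used here. The values are linear, so log2(value + 1) was taken.

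Of 65956 probe sets, 30604 carry exactly 1 gene symbol in the platform's annotation, 2146 several and 33206 none. For 827 the symbol was updated by gene number through a RefSeq table (GRCm38.p6), which also gave gene classes and promoter windows. Of 30142 genes, 355 had more than 1 probe set, and the brightest was kept. Ranks were taken over all genes of the control medium array, with no test.

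The gene lists (41 lists, 549 distinct symbols, 501 measured) and limits were chosen with earlier results of these data known. Any list member may be named, with the brightest and dimmest of each list always named, and the 20 brightest genes were named. The check of probe set positions and the promoter motifs were added after seeing the data. The functions were tested on simulated data. Alternatives to the background level, the probe set kept, the genes ranked, the cut for high and the pseudocount were tried. The number of arrays limits the precision. Python 3.11.15, numpy 2.4.6, pandas 2.3.3 and matplotlib 3.10.9 were used.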

Additional observations from a re-analysis of the deposited data

Results flagged for a closer look

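Signal outside the genes described came from probe sets that could not be assigned to 1 gene. Of 33206 probe sets without a gene symbol, 14087 lay at or above the background level (42.4%) and 1542 at or above the cut for high, the brightest at 18.75. Of 2146 probe sets with several symbols, 1245 lay above background (58.0%) and 244 at or above the cut for high. Among the latter kind are those of Nrp1, Glul, Pdgfra, Spi1 and P2rx7, which are therefore not described.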

How the results depend on the processing

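No paired analysis was possible because the medium has 1 array. The counts and median percentiles were recomputed under 9 settings. Some could not change: a pseudocount of 16 keeps every rank, and only C2 and Ddit3 among the list members have more than 1 probe set. The count above background was 15029 of 30142 genes with the 99th percentile of the vomeronasal genes (level 6.06), in place of 17620. It was 17222 with olfactory receptors (level 5.58). With the 99th percentile, 105 neuronal, 54 injury, 41 glial, 45 stromal and 37 immune genes lay above background. With the brightest 5% in place of 10%, high genes fell to 20 neuronal, 21 injury, 5 glial, 7 stromal and 0 immune ones. A fall is built into this smaller cut. Ranked only among genes of ordinary symbols, the median percentile was 61.8 for neuronal genes in place of 70.6, 44.6 for stromal in place of 56.7 and 28.1 for immune in place of 39.7. Ranked among protein-coding genes, a setting added after seeing the data, the stromal median was 49.6. Of the 355 genes with several probe sets, 96 had them on both sides of background, with a median span of 1.05 log2 units, so that for those genes the probe set chosen sets the class.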
